A study of Mus musculus with 10 samples.

Results

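The transcriptome described here is that of mouse primary lymphatic endothelial cells (LECs) in the 5 libraries labelled control, out of 10 libraries in the series, over all 16251 genes of the deposited count table. The libraries were chosen by their control label and every gene row was kept. The other 5 libraries, from cells given siRNA against Vegfr2, were not used, so no value below compares treated with control cells. By its title, the series asks whether insufficient VEGFR2 moves lymphatic cells toward blood-forming transcriptional programs, and these libraries are its control arm. The cells were in culture and their RNA was taken at the 48 h point of the knockdown experiment. The labels give the control libraries the genotype Control and the same treatment tag as the others, siRNA knockdown. They do not say whether control cells received another siRNA, transfection reagent alone or nothing, so control is used here and not untreated. The tissue of origin, the sex and age of the donor mice, and whether the 5 replicates were separate cultures stand in none of the sources used here, so the spread below is between these libraries and may be technical.

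LECs line the lymphatic vessels, which return fluid, lipids and immune cells from tissues to the blood. In the embryo they arise mainly from veins, and the homeobox factor Prox1, acting with Sox18 and Nr2f2, gives and keeps lymphatic identity. The receptor VEGFR3, encoded by Flt4, receives VEGF-C and drives lymphatic growth, with the co-receptor neuropilin 2 (Nrp2) and with VEGFR2 (Kdr), the receptor that also serves blood vessels. Lyve1, a hyaluronan receptor, marks the initial lymphatics that take up fluid, and endothelial junctions of all vessels use VE-cadherin (Cdh5).

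Each library held 17946483 to 18162327 estimated counts on genes, and levels are given as CPM, the count scaled to a library total of 1000000, where 1 CPM stood for 17.9 to 18.2 counts. A count was found for 14398 to 14427 genes per library, and 11702 genes reached a mean of 1 CPM, of which 2557 reached 100 CPM and 79 reached 1000 CPM. At 0 counts in all 5 libraries were 550 genes. Levels between genes are compared as TPM, for which the count is divided by transcript length before it is scaled to the same total. The length is that of the longest annotated protein-coding transcript, or the longest of any kind where none is coding. The median length used beside it is over all transcripts of a gene, coding or not. All levels are given as mean ± SD with n = 5 libraries, and the libraries are named control 1 to control 5.

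The 6 marker genes all lay far above the median gene (18.2 CPM and 17 TPM). They were chosen with earlier results of these data known, so their levels are no check of the lymphatic label. Lyve1 stood at 5116, 5012, 5050, 5100 and 5203 CPM in control 1 to control 5, and Mmrn1, which encodes the secreted glycoprotein multimerin 1, at 5229, 4956, 4805, 4814 and 5312 CPM. Flt4 had 2845, 3091, 2854, 2924 and 3058 CPM. Reln, which encodes the secreted glycoprotein reelin, had 3323, 3577, 3134, 3114 and 3727 CPM. Mmrn1 and Reln were lowest in control 3 and control 4 and highest in control 5, while Flt4 was highest in control 2.

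Cdh5, the adhesion molecule of all endothelium, was measured at 1427, 1470, 1400, 1450 and 1442 CPM. Prox1 had 495, 476, 472, 472 and 507 CPM, the lowest of the 6 by counts. Per length the order was Lyve1 (4828 ± 101 TPM), Mmrn1 (3076 ± 169 TPM), Flt4 (1295 ± 55.9 TPM), Cdh5 (986 ± 21.7 TPM), Reln (791 ± 69.1 TPM) and Prox1 (168 ± 6.88 TPM), with no overlap between the 5 values of neighbours. Lyve1 was thereby 4th and Mmrn1 10th of all genes per length, while the factor Prox1 was 1176th. The order rests on the transcript length taken: with the median annotated length Reln (1529 TPM) passed Mmrn1 (1300 TPM), Cdh5 (767 TPM) and Flt4 (695 TPM).

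**Figure D1:**
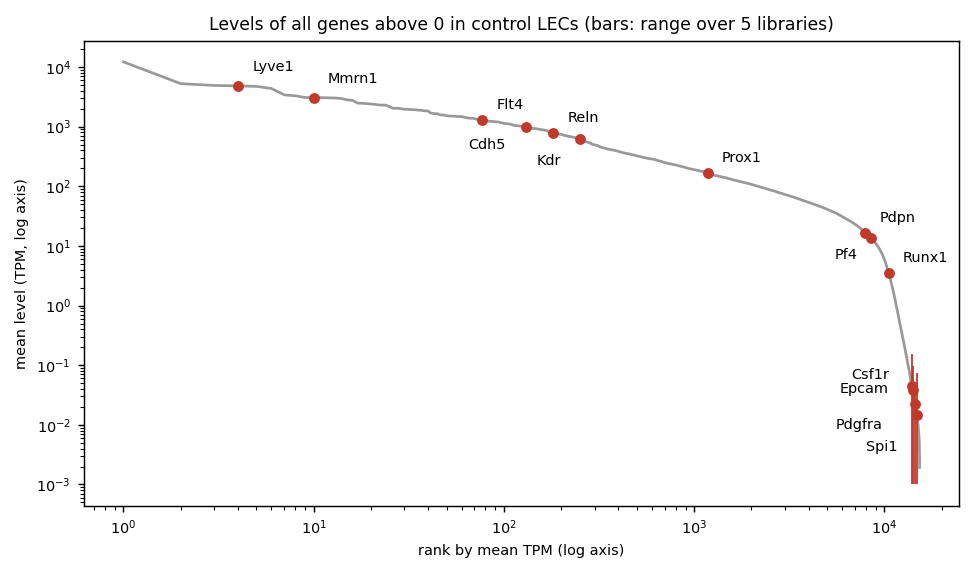
Mean level (TPM, log axis) of every gene above 0 against its rank (log axis) in the 5 control libraries, with 14 genes marked as points and their range over the libraries as bars (libraries at 0 are drawn at the bottom of the bar). Lyve1 and Mmrn1 lie at the top of the curve, Prox1 in its upper part, Pdpn, Pf4 and Runx1 near the bend, and Csf1r, Spi1, Pdgfra and Epcam in the tail.

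The wider list of lymphatic endothelial genes was mostly present but not evenly so. Of its 30 genes 29 have a row, 26 reached 1 CPM, 15 reached 100 CPM and 5 reached 1000 CPM, and the median gene of the list stood at 111 CPM and 52.2 TPM. The list summed to 21235, 21358, 20434, 20551 and 22200 CPM in control 1 to control 5 (21156 ± 711 CPM), or 2.12% of all counts. After the markers above, its highest members per length were Fgl2, which encodes a fibrinogen-like secreted protein (934 ± 35.3 TPM), Sox18, the SOX factor that switches on Prox1 (406 ± 19.8 TPM), and Nrp2 (350 ± 19.8 TPM). Nr2f2, the nuclear receptor of venous and lymphatic identity, had 287 ± 12.6 TPM, and Maf, a bZIP factor enriched in lymphatic endothelium, 148 ± 5.60 TPM.

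Several textbook lymphatic genes were low in the same libraries. Pdpn, which encodes podoplanin, the membrane mucin that binds the platelet receptor CLEC-2, had 11.7, 9.65, 13.0, 11.7 and 9.42 CPM. Ccl21a, a chemokine that guides dendritic cells into lymphatics, was estimated at 2.10 to 3.41 CPM, with reads divided between near-identical copies in all 5 libraries, so its value is uncertain. Foxp2 held 66 counts, Ackr4 4 counts and Adrb1 2 counts over the 5 libraries together, and these were the 3 list members under 1 CPM. All 5 Pdpn values were under the 18.2 CPM of the median gene, beside at least 5012 CPM of Lyve1. Stab1, a scavenger receptor, had 714 ± 29.7 TPM while its relative Stab2 had 5.30 ± 0.532 TPM.

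Genes of lymphatic valves and collecting vessels were present at lower levels. Of 15 listed 14 have a row, 13 reached 1 CPM and 6 reached 100 CPM, with a list median of 68.5 CPM and 31.1 TPM. Fn1, fibronectin, led with 623 ± 24 TPM, then Gja1, connexin 43, with 340 ± 6.93 TPM. Foxc2, the forkhead factor needed for valves, had 18.9, 22.7, 19.2, 22.7 and 21.2 CPM. Itga9, the valve integrin, had 65.6 ± 2.84 CPM, and Gja4, connexin 37, 1.58 ± 0.612 CPM. Piezo1, a stretch-activated channel (123 ± 5.82 TPM), shares reads and exon bases with another gene and is uncertain.

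Genes of the pan-endothelial list were mostly at high level. The list shares Plvap, Gpihbp1, Sox17 and Vwf with the blood vessel subtype lists below. Of 32 genes all have a row, 31 reached 1 CPM, 24 reached 100 CPM and 4 reached 1000 CPM, and the list median was 154 CPM and 160 TPM. The sum was 11105 to 11373 CPM, with a coefficient of variation (CV, the SD as a share of the mean) of 1.06%. Egfl7, a secreted endothelial factor, led with 1122 ± 37.4 TPM and overlaps another gene over 11.2% of its exon bases. Pecam1 (CD31) had 1001 ± 21.3 TPM, Tie1, an orphan receptor kinase, 938 ± 31.6 TPM and the junction protein gene Cldn5 886 ± 47.4 TPM. The member under 1 CPM was Vwf, von Willebrand factor of blood vessel endothelium and platelets, with 52 counts in all.

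Kdr itself, the target of the study, had 1318, 1316, 1277, 1255 and 1422 CPM in the 5 libraries (610 ± 34.4 TPM). Flt1, whose product VEGFR1 binds VEGF-A tightly and dampens its signal, had 137, 140, 137, 136 and 143 CPM (55.2 ± 1.43 TPM). Among the VEGF receptors the order per length was therefore Flt4, Kdr and Flt1, with no overlap between libraries. The co-receptors stood far apart, Nrp2 at 350 ± 19.8 TPM and Nrp1, the partner of blood vessel signalling, at 10.7 ± 0.916 TPM. Vegfc, which encodes the ligand of Flt4, held 34 counts over the 5 libraries (0.377 ± 0.183 CPM).

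Lists for blood vessel subtypes gave a mixed picture, with defining genes at or near 0 beside others at high level. Ackr1, the decoy chemokine receptor of venules, had 0 counts in all 5 libraries, which allows a level of up to 0.0333 CPM over the summed libraries. Gja5, connexin 40 of arteries, had 1 count, Car4, a capillary carbonic anhydrase, 1 count, and Aplnr, the apelin receptor of veins and capillaries, 8 counts. Yet Plvap, which forms the diaphragms of fenestrae and caveolae, had 433 ± 20.6 TPM and Fabp4, a fatty acid carrier of capillaries and fat cells, 934 ± 39.4 TPM with the longest transcript but 138 TPM with the median length.

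Of the 14 arterial genes 11 reached 1 CPM and 3 reached 100 CPM, with a list median of 9.15 CPM. Unc5b, a netrin receptor of tip cells and arteries, had 220 ± 5.15 TPM, and Dll4, a Notch ligand of arteries and sprouts, 76.7 ± 2.95 TPM. Of the 9 venous genes 5 reached 1 CPM with a median of 5.11 CPM, led by Nr2f2, which the lymphatic list also holds, and Ephb4, the receptor for ephrin B2, at 260 ± 9.74 TPM. Of the 12 capillary genes 9 reached 1 CPM with a median of 20.1 CPM, and Gpihbp1, which carries lipoprotein lipase across capillaries, had 145 ± 4.47 TPM. All 5 libraries lay close together in these sums: the arterial list ran from 890 to 926 CPM, the venous from 887 to 953 CPM and the capillary from 842 to 875 CPM.

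**Figure D2:**
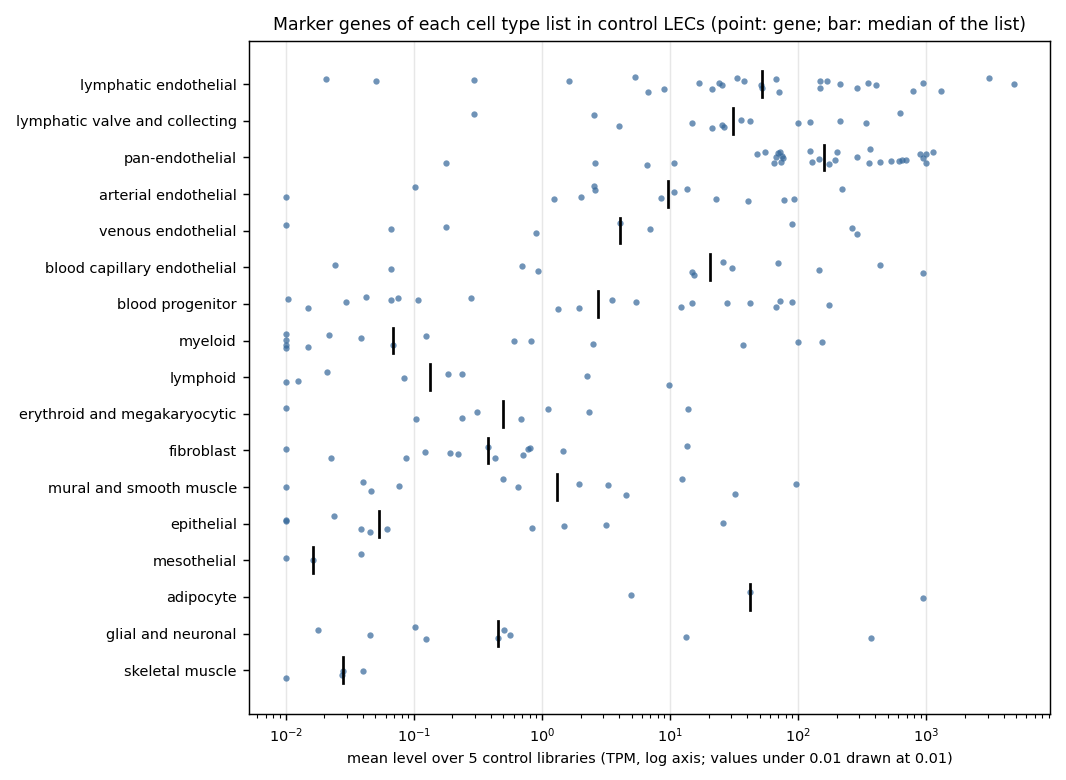
Mean level (TPM, log axis) of each gene with a row in 17 cell type lists, 1 point per gene, with a black bar at the list median and values under 0.01 TPM drawn at 0.01. The lymphatic and pan-endothelial lists have medians of 52.2 and 160 TPM, and the medians of the myeloid, lymphoid, epithelial, mesothelial and skeletal muscle lists are 0.134 TPM or less.

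Markers of white blood cells were close to 0, with a few exceptions. Of 25 myeloid genes 15 have a row, 3 were at 0 counts and 4 reached 1 CPM, and the list median was 0.0221 CPM. Csf1r, the macrophage growth factor receptor, held 6 counts over the 5 libraries, Itgam (CD11b) 1 count and Spi1, the factor PU.1 of myeloid cells, 1 count. C1qc, Fcgr1 and Cx3cr1 had none. The 4 exceptions were Cd14, a co-receptor for bacterial lipopolysaccharide that endothelium also makes (153 ± 10.0 TPM), Cd68, a lysosomal glycoprotein (99.2 ± 6.66 TPM), Fcer1g, an Fc receptor signalling chain (37.0 ± 3.56 TPM), and Laptm5, a lysosomal protein of blood cells (2.35 CPM). The list summed to 136 to 159 CPM, nearly all of it from Cd14 and Cd68.

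Of 15 lymphoid genes 8 have a row and 2 reached 1 CPM, namely Lck, a T cell kinase (7.80 CPM), and Cd27, a TNF receptor (1.29 CPM). Of 15 erythroid and megakaryocytic genes 8 have a row and 2 reached 1 CPM. Pf4, platelet factor 4, had 3.28, 3.55, 2.88, 2.64 and 2.4 CPM, and Itga2b, the platelet integrin CD41, 2.89 ± 0.543 CPM. Ptprc, Adgre1, Lyz2, Gata1, the globin genes, Adipoq and Sox10 have no row here and are not described.

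Genes of blood progenitors were partly present. Of 22 listed genes 20 have a row, 12 reached 1 CPM, 8 reached 10 CPM and 2 reached 100 CPM. Over all 16251 genes 11702 reached 1 CPM, 9357 reached 10 CPM and 2557 reached 100 CPM. The list median was 5.60 CPM, under the 18.2 CPM of the median gene, and the sum ran from 501 to 521 CPM. Lmo2, a bridging factor in blood and endothelial complexes, had 174 ± 7.52 TPM, Hhex, an early endothelial and blood homeobox factor, 89.9 ± 4.34 TPM, Cd34 72.0 ± 6.32 TPM, Tal1, the partner of Lmo2, 67.1 ± 1.84 TPM and Gata2 42.2 ± 0.968 TPM. Without the 4 members that are also on an endothelial list (Gata2, Tal1, Lmo2 and Cd34) the sum was 176 CPM in place of 510 CPM. Runx1, the factor of the endothelial to blood transition, had 7.94, 6.88, 8.42, 7.38 and 6.91 CPM (3.51 ± 0.298 TPM), above 1 CPM in all 5 libraries. Myb, which blood stem cells need, held 13 counts and Gfi1 4 counts. These levels are those of a population, and a low level in all cells cannot be told apart from a higher one in few cells.

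Markers of stromal, epithelial and other cells were mostly low, with single members at higher levels. Of 13 fibroblast genes with a row 3 reached 1 CPM (Fbln1 at 18.2 CPM, Col3a1 at 2.97 CPM and Col6a3 at 2.62 CPM), while Pdgfra held 5 counts, Col1a1 24 counts and Lum 0. Of 12 mural genes 8 reached 1 CPM, with Mcam, an adhesion molecule also made by endothelium, at 104 ± 4.77 CPM, Pdgfrb at 6.42 ± 1.20 CPM, Acta2 at 3.37 ± 0.557 CPM and Rgs5 at 0. Of 10 epithelial genes with a row 3 reached 1 CPM, namely the tight junction gene Ocln (37.9 ± 1.81 CPM), Krt18 (1.66 CPM) and Krt10 (1.13 CPM), while Epcam held 3 counts, Cdh1 1 count and Cldn4 none. Of 8 adipocyte genes the 3 with a row all reached 1 CPM, namely Fabp4 (306 ± 14.6 CPM), Pparg, the main factor of fat cell formation (32.5 ± 2.71 CPM), and Lpl, lipoprotein lipase (7.43 ± 0.706 CPM). The 3 mesothelial and 4 skeletal muscle genes with a row stayed under 1 CPM. Of 9 glial and neuronal genes with a row 2 reached 1 CPM. Gap43, a membrane protein known from growing axons, had 188, 190, 193, 206 and 174 CPM, and Tubb3 had 8.11 to 9.48 CPM. The part that cells other than LECs may have had in these levels was not tested.

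The most abundant transcripts were those of protein synthesis, the cytoskeleton and iron storage, with lymphatic genes among them. Eef1a1, the translation elongation factor, was first in all 5 libraries with 8052, 7945, 8174, 8035 and 7729 CPM (12200 ± 177 TPM), with some reads divided between genes in 4 libraries. Tmsb4x, thymosin beta 4, which holds actin monomers, had 5265 ± 57.9 TPM and Tpt1, a translationally controlled protein, 4906 ± 63.3 TPM. Fth1, ferritin heavy chain, had 4736 ± 226 TPM, B2m, the light chain of MHC class I, 4363 ± 312 TPM and Vim, the filament protein vimentin, 3413 ± 46.9 TPM. Lyve1 fell between Tpt1 and Fth1, and its 5 values overlapped those of both.

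By counts alone, which favour long transcripts, the 10 highest genes were Eef1a1 (7987 ± 165 CPM), Lyve1, Mmrn1, Col4a1 (3448 ± 36.6 CPM), Reln, Serinc3 (3329 ± 56.2 CPM), Flt4, Vim (2731 ± 56.6 CPM), Fth1 (2583 ± 143 CPM) and Col18a1 (2368 ± 104 CPM). Col4a1 and Col18a1 encode basement membrane collagens and Serinc3 a membrane protein. These 10 genes took 3.85% to 3.93% of counts, the 100 highest took 15.4% to 15.5%, and 1100 genes held 50% of all counts. Of the 100 highest genes per length, 48 were also among the 100 highest by counts. The 38 basement membrane and matrix genes all have a row, 35 reached 1 CPM and 10 reached 1000 CPM, and their median was 188 CPM. Sparc, a collagen-binding matrix protein, was second among them per length after Mmrn1, with 2024 ± 51.1 TPM.

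Ribosomal protein genes filled 42 of the 100 highest places per length. All 77 with a row reached 10 CPM and 75 reached 100 CPM, and together they held 9.66% of TPM, with a median of 1197 TPM. The 100 highest genes had a median transcript length of 1210.5 bases against 3205 bases in all genes at 1 CPM or more, which is partly built into a unit that divides by length. Their median GC content was 51.9% against 50.0% and their median exon number 6 against 9. The 14 elongation and initiation factors summed to 2.53% of TPM and the 38 cytoskeletal genes to 3.81%, and 37 of these 38 reached 100 CPM. The 8 MHC class I genes, several of which share reads with near-identical copies, ran from 3191 CPM in control 2 to 3787 CPM in control 4.

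Promoter windows were read for the abundant genes, since ribosomal protein transcripts are known to begin with a tract of pyrimidines, through which growth signals control their translation. RefSeq promoters of GRCm38.p6 (250 bases before to 50 after the annotated start) were found for 12853 of the 16251 genes, and for 57 of the 77 ribosomal protein genes. A start with C followed by at least 4 bases that are C or T was found in 13 of those 57 (22.8%) and in 2.90% of all 12853. The tract was sought only from the exact annotated start, so one that begins a base away was missed. The windows of 3 high ribosomal protein genes and of Rps10 (923 TPM) are shown from 50 bases before the start, with the run of C and T at the start in capitals.
Rps18, chr17:33955656-33955715, minus strand: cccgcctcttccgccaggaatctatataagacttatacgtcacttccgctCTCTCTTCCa
Rpl35a, chr16:33056432-33056491, plus strand: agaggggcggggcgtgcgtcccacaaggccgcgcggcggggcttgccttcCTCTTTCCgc
Rpl14, chr9:120571467-120571526, plus strand: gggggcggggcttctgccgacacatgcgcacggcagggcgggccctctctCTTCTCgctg
Rps10, chr17:27635235-27635294, minus strand: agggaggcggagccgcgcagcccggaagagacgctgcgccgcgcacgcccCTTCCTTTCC
Rps18 had 1384 ± 68.9 TPM, Rpl35a 1319 ± 100 TPM and Rpl14 1197 ± 21.7 TPM. The letters CCGGAAG, on either strand and at any place in the window, were in 24 of the 57 ribosomal windows (42.1%), in 16.9% of all genes and in 21.0% of genes at 1 CPM or more. A gene counts where any of its windows holds the letters, with 1.18 windows per ribosomal gene and 1.26 per gene over all.

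The letters TATAAA lay 16 to 40 bases before the start, on the sense strand, in 2 of the 73 genes with a window among the 100 highest per length (2.74%) and in 1.84% of all genes. These 2 were Vim and Ppia, the chaperone cyclophilin A (2391 ± 30.2 TPM), shown here with TATAAA in capitals, 32 and 29 bases before the start.
Vim, chr2:13574261-13574320, plus strand: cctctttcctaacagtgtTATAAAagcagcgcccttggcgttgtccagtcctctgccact
Ppia, chr11:6415817-6415876, plus strand: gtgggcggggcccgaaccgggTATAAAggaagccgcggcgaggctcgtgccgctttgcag
None of the 57 ribosomal windows held it there. On either strand and anywhere in the window, TATAAA was in 15.1% of the 73 genes and in 10.2% of all genes. A match is a description of the letters and not a site of binding.

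For lymphatic and pan-endothelial list members at 10 CPM or more, windows were at hand for 29 of 53 genes. The letters CAGGAAG and CCGGAAG both hold GGAA, the core that ETS factors bind. On either strand CAGGAAG was in 7 of these 29 (24.1%), against 14.9% of all genes and 14.7% of genes at 1 CPM or more. CCGGAAG was in 1 of 29 (3.45%), against 16.9% and 21.0%. With so few genes these shares are uncertain, and their difference was not tested. One match of CAGGAAG in each of 5 genes is shown as a description of the letters. Any link to the levels of ETS factors was not tested. Egfl7 holds 3 matches over the windows of its annotated starts. Each match shown is printed with the letters in capitals as CAGGAAG or as their reverse complement CTTCCTG.
Egfl7, chr2:26583767-26583807, plus strand: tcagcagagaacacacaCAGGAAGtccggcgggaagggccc
Emcn, chr3:137340887-137340927, plus strand: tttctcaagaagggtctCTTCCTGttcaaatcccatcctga
Erg, chr16:95459365-95459405, minus strand: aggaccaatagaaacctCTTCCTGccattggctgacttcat
Calcrl, chr2:84425310-84425350, minus strand: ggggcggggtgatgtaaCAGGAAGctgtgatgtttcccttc
Robo4, chr9:37401905-37401945, plus strand: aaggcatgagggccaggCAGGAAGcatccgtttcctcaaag
They begin 81, 174, 40, 67 and 50 bases before the annotated start. Emcn, endomucin, had 650 ± 12.0 TPM and Calcrl, the receptor for adrenomedullin that lymphatic growth needs, 193 ± 7.83 TPM. The other carriers were Cd34 and Ackr2.

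Receptors were examined as 9 families with 346 listed genes, of which 306 have a row, 204 reached 1 CPM, 55 reached 100 CPM and 8 reached 1000 CPM. Lyve1 was first per length, then Flt4, then Itgb1, the common integrin beta chain (980 ± 23.3 TPM), and Tie1, the last 2 with overlapping values. Stab1, Kdr and S1pr1, the sphingosine phosphate receptor that steadies endothelial junctions (530 ± 6.45 TPM), followed without overlap. Plxnd1, a semaphorin receptor (406 ± 12.7 TPM), and Fcgrt, the receptor that recycles IgG and albumin (402 ± 8.39 TPM), overlapped, as did Eng, the co-receptor for BMP9 (356 ± 12.2 TPM), Tgfbr2 (350 ± 5.26 TPM) and Nrp2. This order held for the longest transcript. With the median transcript length it was Lyve1 (3193 TPM), Plxnd1 (2183 TPM), Stab1 (1953 TPM), Itgb1 (873 TPM) and Flt4 (695 TPM). In Kdr and Nrp2 the 5 values were highest in control 5.

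Of 48 receptor tyrosine kinases with a row 25 reached 1 CPM and 3 reached 1000 CPM (Flt4, Tie1 and Kdr), and the family median was 2.07 CPM. Tek, the angiopoietin receptor Tie2, had 75.8 ± 1.3 TPM. Its ligand Angpt2, an angiopoietin stored by endothelium, had 319 ± 14.6 TPM, second to Tgfb1 (813 ± 20.9 TPM) among the 58 secreted ligands with a row. Of 75 G protein-coupled receptors with a row 41 reached 1 CPM and 10 reached 100 CPM. With the longest transcript Ednrb, an endothelin receptor (219 ± 9.45 TPM), and Calcrl came after S1pr1, and Calcrl overlapped Gprc5b (188 TPM). With the median length Adgrl4 (430 TPM) and Gprc5b (340 TPM) lay above S1pr1 (224 TPM). Of 25 integrins with a row 17 reached 1 CPM, and Itga6, the laminin receptor chain, had 320 ± 6.17 TPM.

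Of 53 cytokine and TNF receptors 40 reached 1 CPM, led by Tnfrsf1a, the main TNF receptor, with 257 ± 7.02 TPM. Notch1 and Notch4 had 60.1 ± 1.86 and 59.8 ± 3.10 TPM with the longest transcript, but 593 and 264 TPM with the median length. Ifnar1, a chain of the type I interferon receptor, had 193 TPM, with reads divided between genes in 2 libraries. Of 16 pattern recognition receptors with a row 12 reached 1 CPM, and Cd14 led them with the longest transcript. With the median length Tlr3 (159 TPM), Ddx58 (136 TPM), Tmem173 (114 TPM) and Nod1 (90.3 TPM) lay above Cd14 (84.8 TPM).

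**Figure D3:**
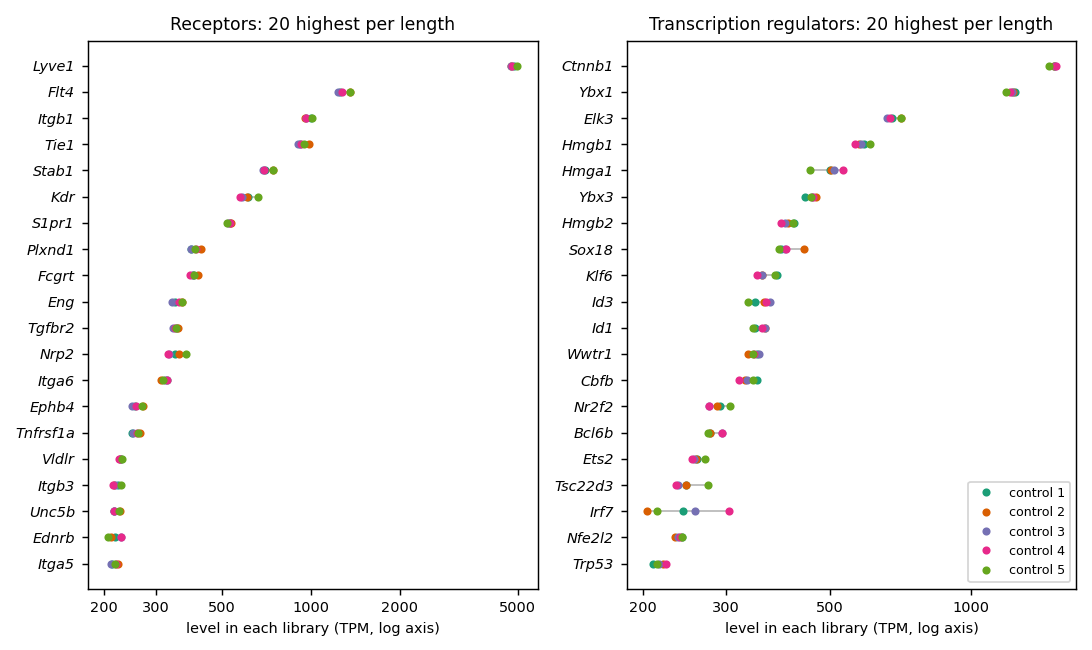
Levels in each of the 5 control libraries (TPM, log axis) of the 20 receptors and the 20 transcription regulators with the highest mean per length, coloured by library. Lyve1, at 4828 TPM, stands apart from Flt4 at 1295 TPM among receptors, and Irf7 shows the widest range among the regulators shown.

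Transcription regulators were examined as 11 families with 480 listed genes, of which 420 have a row, 311 reached 1 CPM, 83 reached 100 CPM and 2 reached 1000 CPM. First per length was Ctnnb1, the coactivator and junction protein beta-catenin (1501 ± 20.7 TPM), which shares 15.1% of its exon bases with another gene and binds no DNA itself. Ybx1, a cold shock protein that binds DNA and RNA (1219 ± 19.8 TPM), and the chromatin proteins Hmgb1 (585 ± 15.8 TPM) and Hmga1 (500 ± 29.5 TPM) were also high, the last 2 with reads divided between genes in some libraries. Elk3, an ETS factor of endothelium, had 687 ± 21.2 TPM and Sox18 406 ± 19.8 TPM. Klf6 (367 ± 16.4 TPM), Id3 (356 ± 15.1 TPM) and Id1 (355 ± 9.86 TPM) followed, with overlapping values. Wwtr1, the TAZ coactivator of the Hippo pathway, had 345 ± 6.91 TPM, within the range of Id1. With the median transcript length the order changed: Tcf4 (752 TPM), Bcl6b (619 TPM) and Klf6 (587 TPM) lay above Sox18 (172 TPM), Id1 (166 TPM) and Wwtr1 (148 TPM).

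The ETS family held several abundant members. Of 21 with a row 17 reached 1 CPM, 7 reached 100 CPM and 1 reached 1000 CPM, and the median was 77.5 CPM. After Elk3 came Ets2 (260 ± 6.77 TPM), Erg, the factor that keeps endothelial identity (200 ± 7.60 TPM), Fli1 (125 ± 1.59 TPM), Etv4 (110 TPM) and Ets1 (104 ± 2.26 TPM). Of 15 SOX factors with a row 9 reached 1 CPM, with Sox18 and Sox7 (64.8 TPM) above Sox17 (2.59 TPM), the arterial member. Of 4 GATA factors with a row Gata2 alone reached 10 CPM, and Gata6 had 3.64 CPM. Prox1 led the homeobox genes, whose median was 6.64 CPM over 69 genes with a row. Hoxd8 (107 ± 3.76 TPM) and Hoxd9 (56.5 ± 4.16 TPM) were the highest Hox genes, and Hoxa13, a gene of the most distal body parts, was at 0 counts.

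The libraries held the transcripts of dividing cells. All 30 cell cycle genes reached 10 CPM and 22 reached 100 CPM, with a list median of 177 CPM and a sum of 5669 to 5812 CPM (CV 0.982%). Mki67, the antigen of cycling cells, had 457, 482, 452, 436 and 509 CPM, Top2a, topoisomerase of dividing cells, 557, 551, 531, 546 and 580 CPM, and Pcna, the clamp of DNA replication, 689 ± 19.5 TPM. Cdkn2a, whose products p16 and p19 hold the cell cycle back, was high beside them, with 409, 447, 453, 436 and 385 CPM (1304 ± 77.6 TPM), and was 76th of all genes per length. Control 5 was highest for Mki67 and Top2a and lowest for Cdkn2a. Of the 12 genes of cell cycle arrest and senescence all reached 1 CPM and 4 reached 100 CPM. Cdkn1a, the p53 target p21, had 67.6 ± 2.04 TPM.

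The 5 libraries differed little. The biological coefficient of variation (BCV, the spread beyond counting error that edgeR estimates over all genes) was 3.0% over 11871 genes, and it ran from 2.75% without control 5 to 3.17% without control 3. Among 7876 genes at 20 CPM or more the median CV was 3.60%, 78 genes had a CV of 10% or more, 4 had 20% or more and 0 differed by 2-fold between their highest and lowest library. Counts of 2 libraries differed by 1.5 to 3.47 times the variance of pure counting error, lowest for control 3 with control 4 and highest for control 4 with control 5, so every pair differed by more than counting error. The first of 4 principal components held 36.1% of the variance and set control 5 apart from control 4. The second held 27.7% and set control 2 apart. At 1000 CPM or more the median CV was 2.54%, where counting error alone gives 0.648%.

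**Figure D4:**
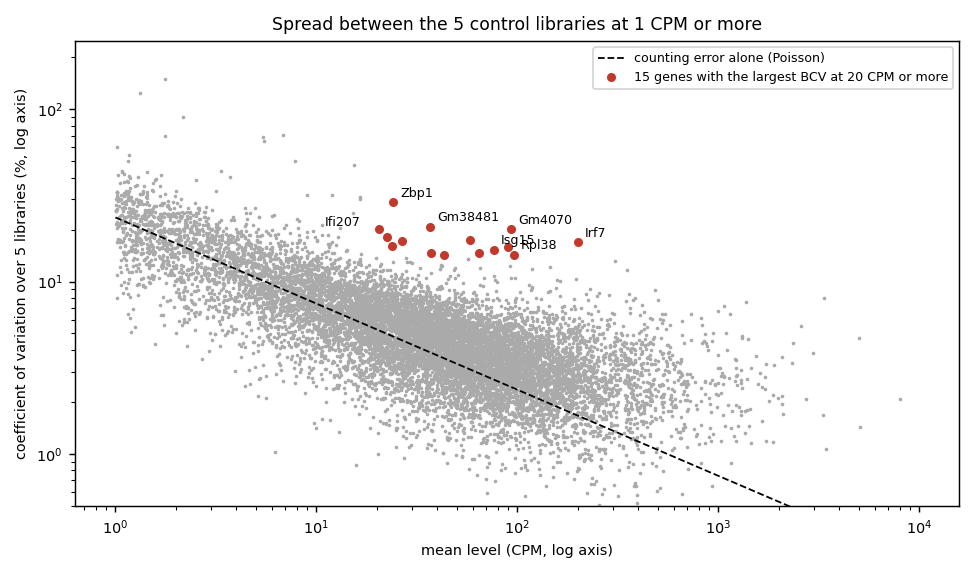
CV over the 5 control libraries (%, log axis) against mean CPM (log axis) for genes at 1 CPM or more, with counting error alone as a dashed line and the 15 genes of largest BCV at 20 CPM or more in red. The cloud follows the line at low levels and flattens above it at high levels, and Zbp1 is the highest red point.

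The narrowest genes at 20 CPM or more were Gfpt1, Sptlc1, Stk40, Nipa2 and St3gal5, which encode enzymes, a kinase-like protein and a magnesium transporter. Nipa2 had 62.9, 62.6, 62.6, 63.0 and 62.6 CPM and Gfpt1, the first enzyme of the hexosamine pathway, 63.6, 63.2, 63.5, 63.2 and 63.6 CPM. The CV of Nipa2 was 0.32% where counting error alone gives 2.97%, and these 5 genes are the low end of 7876 values. Reads of Nipa2 were divided between genes in all 5 libraries.

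The widest genes were mainly those induced by interferon, and they moved together. Of the 15 genes with the largest BCV at 20 CPM or more, 9 are interferon-stimulated: Zbp1, Ifi207, Ifit3b, Ifit3, Irf7, Oasl2, Isg15, Ifit1 and Tgtp1. Zbp1, a sensor of nucleic acids, had 23.3, 17.9, 27.5, 34.4 and 17.8 CPM, Irf7, the factor that amplifies interferon, 197, 166, 212, 250 and 173 CPM, and Isg15, a ubiquitin-like protein, 81.6, 66.9, 78.0, 91.7 and 62.6 CPM. Control 4 was highest for 7 of the 9 and control 3 for the other 2, and control 2 and control 5 were the lowest pair for all 9. Ifit3, Ifit3b and Tgtp1 have near-identical relatives and reads divided between genes.

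The pattern held over a wider list, written after those genes had been seen and so of no independent weight. Of 50 interferon-stimulated genes 48 have a row and 44 reached 20 CPM, and control 4 was highest for 37 of the 44, while control 5 was lowest for 24 and control 2 for 18. Over all genes at 20 CPM or more, control 4 was highest for 19.7%, control 5 lowest for 23.5% and control 2 lowest for 21.0%. The median CV of the 44 was 9.12%, against 3.60% for all genes at that level. Their summed level with the rest of the list was 7047.5, 6328, 7192, 7676 and 6484 CPM in control 1 to control 5. That sum includes B2m, H2-D1 and H2-K1, with means of 1369.5, 817 and 657 CPM, which the MHC class I genes above also hold. The median distance of the 44 from their own mean was 0.15 in control 4, -0.12 in control 2 and -0.12 in control 5 on the log2 scale. What sets the libraries apart in these genes was not tested.

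**Figure D5:**
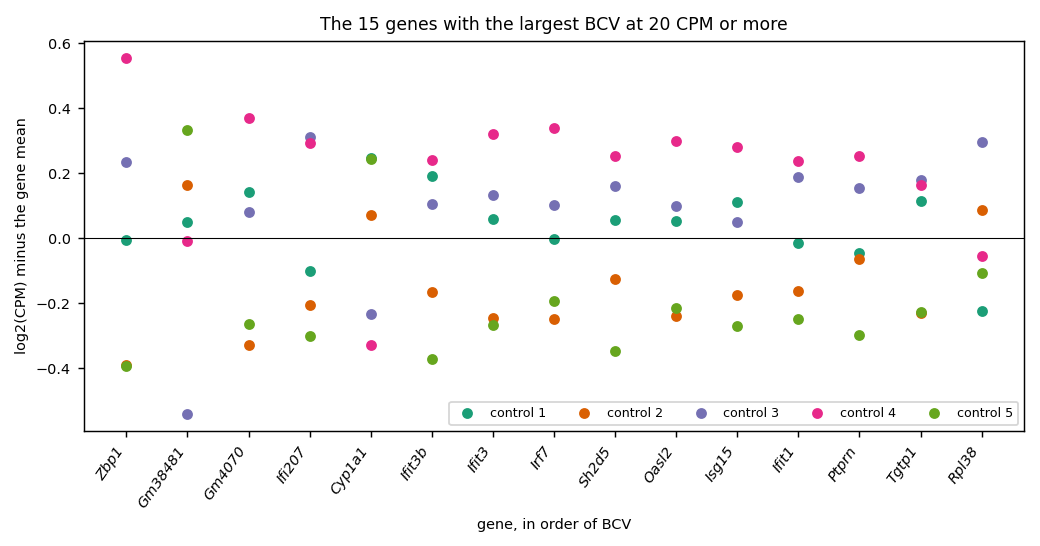
Distance of each control library from the gene's mean (log2 CPM) for the 15 genes with the largest BCV at 20 CPM or more, in order of BCV. Control 4 and control 3 lie above 0 and control 2 and control 5 below it for the interferon-stimulated genes, while for Cyp1a1 control 3 and control 4 lie below 0.

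The other 6 wide genes were Cyp1a1, Sh2d5, Ptprn, Rpl38 and the unnamed loci Gm38481 and Gm4070. Cyp1a1, an oxidase induced through the aryl hydrocarbon receptor, had 26.2, 23.2, 18.8, 17.6 and 26.2 CPM, so that control 3 and control 4 were lowest. Gm4070 had 101, 73.0, 96.9, 118 and 76.3 CPM, so that control 4 was highest and control 2 and control 5 lowest, as in the interferon genes. Rpl38, a ribosomal protein, had 81.7, 101, 117, 91.9 and 88.5 CPM, an order unlike the others. Both unnamed loci hold reads divided between genes in all 5 libraries.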

How the data were processed

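Poly(A) RNA was captured with oligo(dT), primed with random hexamers and sequenced, per the labels' protocols. The authors deposited 1 table with 1 estimated count per gene and library, made with tools listed in the submitters' processing notes as HISAT2 2.2.1, Bowtie2 2.4.5 and RSEM 1.3.1 on GRCm38.p6, and not normalized. What each tool did, which annotation served, how strand was handled and whether genes were filtered is not given in the sources used here. The 5 siRNA columns were not used. CPM divide by the library total. TPM use the longest protein-coding GENCODE M21 transcript, or the longest of any kind where none is coding. Genes were matched by Entrez ID for 15691 and by symbol for 125, with no length for 435. Counts were rounded for edgeR 4.0.16 in R 4.3.3 (TMM, filterByExpr with a minimum count of 10), and no test between groups was made. Figures and tables used Python 3.11.15.

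The members and gene lists were chosen with earlier results of these data known. Genes named are the 6 markers, the 30 highest per length and 10 highest by counts without unnamed loci, up to 5 members per list and any counted among 5 or fewer, the 15 widest and 5 narrowest at 20 CPM or more, and fixed names. Others were chosen after their values were seen: Stab2, Foxc2, Itga9, Gja4, Nrp1, Gja5, Car4, Aplnr, Itgam, Myb, Gfi1, Rps10, Rps18, Rpl35a, Rpl14, Emcn, Ackr2, Tek, Ets1, Sox17, Hoxd9, Tcf4, Bcl6b and Cdkn1a, and the interferon list.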

Additional observations from a re-analysis of the deposited data

Results flagged for a closer look

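Among 320 values examined for 1 library apart from the other 4 (265 genes, the list sums and the library totals), 16 stood apart by the size of the gap relative to the range, or 5.00%. Chance alone gives about 1 in 20.

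Control 2 stood high in Col18a1, a basement membrane collagen (2551 CPM, against 2301 to 2353 in the others), and in Robo4, an endothelial guidance receptor (238.6 CPM against 229.8 to 230.6). Control 3 stood high in Twist1 (0.887 CPM against 0.330 to 0.446), Il2rg (84.6 CPM against 83.0 to 83.2) and Nr1d2, a clock repressor (91.0 CPM against 81.9 to 84.5), and low in Foxk2 (95.8 CPM against 99.2 to 100.6). Control 5 stood high in Ets2 (381.0 CPM against 362.3 to 367.6) and Maf (362.0 CPM against 334.4 to 341.9), and low in S1pr1 (572.5 CPM against 589.6 to 596.2). Control 4 stood high in Mcm3, a replication helicase subunit (296.8 CPM against 284.5 to 287.1), and control 1 low in Tubb3 (8.11 CPM against 9.20 to 9.48).

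The other 5 rest on single counts and carry no more than that. Spi1 and Tnnt3 had 1 count in control 3 (0.0554 CPM), Mb 1 count in control 2 (0.0554 CPM) and Cdh1 1 count in control 1 (0.0555 CPM), with 0 in the other libraries. Des was at 0.0 CPM in control 4 and had 1 count in each of the others (0.0554 to 0.0557 CPM).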

How the results depend on the processing

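Levels per length depend on the transcript length taken: of 264 named genes, 160 moved by over 1.5-fold with the median transcript length (114 of them lower) and 22 with merged exons (22 lower), and the 100 highest genes shared 51 with the first and 70 with the second. The share of the 10 most abundant genes was 4.92% by TPM against 3.89% by counts, and of the 100 most abundant 19.9% against 15.5%. The BCV ran from 2.75% to 3.17% with 1 library left out, and from 2.94% to 3.01% with other scalings and filters. Without members shared with an endothelial list, blood progenitor markers summed to 176 CPM in place of 510 and adipocyte markers to 39.9 CPM in place of 345. TMM scaling moved 0 of 265 gene levels beyond 1 SD, and leaving out a library moved 13 of 1325 by over 1.5-fold, all lower. Genes at 1 CPM or more numbered 11467 with that level asked of every library, 12218 at 0.5 CPM and 11157 at 2 CPM, against 11702. Absence is limited by depth: 0 counts allow up to 0.0333 CPM over the 5 libraries and 0.167 CPM in the smallest, for counting error only. No paired analysis was possible because a single group is described.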
